A study of Mus musculus with 6 samples.

Results

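C2C12 is an established mouse line of skeletal myoblasts, the dividing precursors that leave the cell cycle and fuse into multinucleate myotubes when serum is withdrawn. Hi-C, which ligates and sequences DNA ends that lie near each other in the nucleus, was compared between myotubes harvested at day 3 of differentiation without drug and myotubes harvested at day 7 that had received AraC at 10 µg/mL from day 3, with fresh drug at day 5. AraC (cytosine arabinoside) is a cytidine analogue that stops DNA synthesis and was given to kill the myoblasts still present at day 3, so the day 3 cultures still held myoblasts, of which the AraC-treated cultures are labelled as depleted. Time in culture, the drug and the share of residual myoblasts therefore cannot be told apart in this comparison. All cells came from 1 line, and the untreated day 0 myoblasts are given beside the myotubes only as a reference.

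Each condition had 2 libraries, which were pooled before deposit into 1 matrix of correlation coefficients between the interaction profiles of 500 kb bins. There was thus 1 value per bin and condition, with no replicate error and no test, and the sequencing depth is not in the matrices. Of 5455 bins in a matrix, 4930 were autosomal, and the 4732 with data in both conditions (a diagonal above 0.5) were compared. The diagonal held no value other than 0 or 1, so no bin lay near that limit. A further 2 autosomal bins had data in day 3 myotubes only, 5 in AraC-treated myotubes only and 191 in neither.

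Chromosomes of interphase nuclei separate into an A compartment, rich in genes and active chromatin, and a B compartment that is gene-poor, late-replicating and often placed at the nuclear lamina. In a Hi-C correlation matrix the separation appears as a plaid pattern, and the first principal component of each chromosome (PC1) gives every bin a position along it. Here PC1 was taken from the within-chromosome block of each autosome, given a positive sign on the side with more protein-coding gene starts (A), and divided by its SD over the bins of that chromosome in that condition. A scaled PC1 of 1 is thus 1 SD of the chromosome towards A. As each chromosome has a mean of 0, a shift of a whole chromosome cannot be seen. A change of 0.5 or more in scaled PC1 is called a rise, and a change of -0.5 or less a fall.

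The sequences below anchor the comparison. Hi-C libraries were cut with HindIII, so every contact is read from fragment ends at AAGCTT sites. The site nearest to the start of Dpf3, the gene in the bin with the largest rise, lay 5656 bases away at chr12:83493345-83493404 (GRCm38.p6, plus strand, the site in capitals), and the bin held 158 such sites against a median of 162 over all bins.

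Dpf3 HindIII site: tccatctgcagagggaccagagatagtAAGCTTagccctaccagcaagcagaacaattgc

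The 250 bases before the RefSeq start of 4 genes are shown next (GRCm38.p6, in the direction of the gene), because their bins carry the results. Dpf3 had the largest rise, and Notch2 lay in a 4.5 Mb stretch of chromosome 3 that rose. Gas1 had a fall in a bin with no other gene start, and Col3a1 lay in a bin whose profile correlated negatively between the conditions. Capitals mark E-boxes (CANNTG, which reads the same on both strands), the core that Myod1 and other basic helix-loop-helix factors bind. The Dpf3 promoter (chr12:83487737-83487986, minus strand) held 1 E-box, beginning 98 bases before the start, and the Col3a1 promoter (chr1:45311288-45311537, plus strand) held 4. The Notch2 promoter (chr3:98013288-98013537, plus strand) and the Gas1 promoter (chr13:60177536-60177785, minus strand) held 0.

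Dpf3: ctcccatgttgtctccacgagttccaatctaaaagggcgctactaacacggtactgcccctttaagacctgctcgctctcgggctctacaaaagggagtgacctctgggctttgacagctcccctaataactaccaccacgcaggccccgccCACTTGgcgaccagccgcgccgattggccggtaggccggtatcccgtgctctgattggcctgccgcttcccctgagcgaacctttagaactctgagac
Notch2: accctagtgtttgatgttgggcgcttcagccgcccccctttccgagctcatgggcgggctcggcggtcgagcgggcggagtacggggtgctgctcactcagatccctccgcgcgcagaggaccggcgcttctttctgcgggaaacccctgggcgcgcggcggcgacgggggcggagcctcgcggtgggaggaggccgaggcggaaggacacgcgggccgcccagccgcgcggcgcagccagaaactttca
Gas1: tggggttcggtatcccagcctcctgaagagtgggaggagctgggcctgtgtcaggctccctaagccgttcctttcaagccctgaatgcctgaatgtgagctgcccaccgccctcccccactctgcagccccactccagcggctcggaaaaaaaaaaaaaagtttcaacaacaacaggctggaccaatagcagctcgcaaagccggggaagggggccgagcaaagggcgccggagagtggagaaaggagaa
Col3a1: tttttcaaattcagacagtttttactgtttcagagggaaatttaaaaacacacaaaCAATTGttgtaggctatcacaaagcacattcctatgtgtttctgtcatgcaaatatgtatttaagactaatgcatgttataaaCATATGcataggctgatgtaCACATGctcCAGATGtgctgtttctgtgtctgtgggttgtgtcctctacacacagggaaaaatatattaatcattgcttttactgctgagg

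Among 32851 RefSeq promoters cut to the same 250 bases, 66.2% held CANNTG, 13% held CAGCTG, an E-box form favoured by Myod1 that CANNTG includes, and 6.22% held AAGCTT. None of the 4 promoters shown held CAGCTG or AAGCTT. These matches describe letters in a window far smaller than a bin.

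Most of the genome kept its place. Scaled PC1 of the 4732 bins correlated at r = 0.982 between day 3 and AraC-treated myotubes, as a description over bins that share both matrices. The change had an SD of 0.19 and a median of -0.01, and 90% of it lay between the percentiles at -0.29 and 0.33. The A compartment held 1726 bins (36.5%) in day 3 myotubes and 1677 bins (35.4%) in AraC-treated myotubes. A total of 243 bins changed sign, 5.14% of all: 146 went from A to B (3.09% of bins) and 97 the other way, from B to A (2.05%). The exact Clopper-Pearson 95% interval for the total, 4.52 to 5.80%, covers counting of bins only. It treats bins as independent, although the change correlated at 0.61 between adjacent bins, so it is likely too narrow. Bins that changed sign lay close to the border, with a median absolute scaled PC1 of 0.12 at day 3 against 0.73 over all bins. With an absolute scaled PC1 above 0.2 asked for in both conditions, 3 bins went towards B and 12 towards A, so the order of the directions turned.

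The larger changes went mostly one way on this scale. Scaled PC1 rose in 102 bins (2.16% of those compared) on 17 autosomes and fell in 18 bins (0.38%) on 8 autosomes, so 85% of the bins past 0.5 were rises. The bins nearest to the threshold had changes of 0.5034 and 0.4995 on the rising side and of -0.507 and -0.497 on the falling side. The split depended on the scale. PC1 was less spread in AraC-treated myotubes on 19 of 19 autosomes (ratio of SDs 0.77 to 0.91). When PC1 was not divided by its SD there were 103 rises and 217 falls. Of the 102 rises 61, and of the 18 falls 13, were then still past 0.5. When ranks within the chromosome were turned into normal scores there were 141 rises and 132 falls, and 16 of the 102 rises and 4 of the 18 falls were then still past 0.5. Under the other ways of taking PC1 the number of rises stayed between 100 and 112 and that of falls between 14 and 26.

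**Figure D1:**
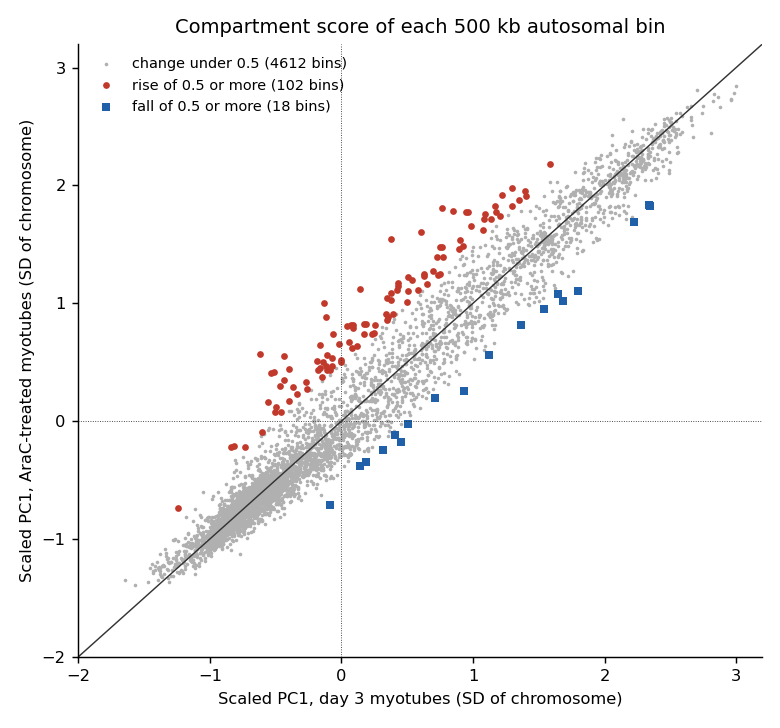
Scaled PC1 of each 500 kb autosomal bin in day 3 myotubes (x axis, in SD of the chromosome) against AraC-treated myotubes (y axis, same unit), with 1 point per bin and the line of equality. The 102 bins that rose lie above the line, mostly between -0.5 and 1.5 on the x axis, and the 18 that fell lie closer to it, below.

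**Figure D2:**
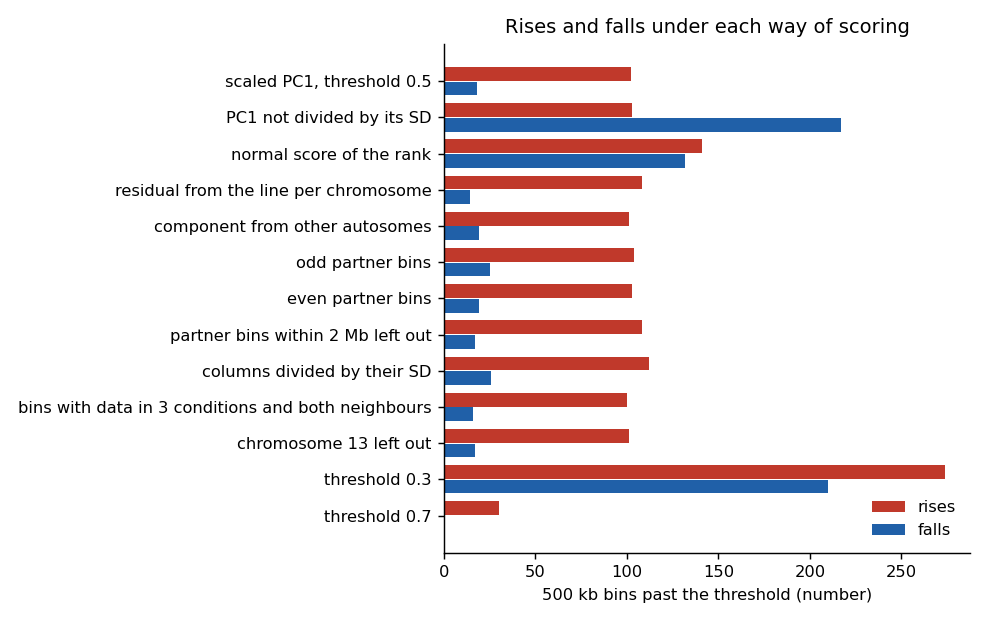
Number of 500 kb bins past the threshold (x axis), rises and falls, for the main scoring and each alternative (y axis). Rises outnumber falls in the main scoring (102 against 18), the order turns where PC1 is not divided by its SD (103 against 217), and at 0.7 there are 30 rises and 0 falls.

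Of the 102 bins that rose, 34 crossed from B to A, 63 were already in A at day 3 and 5 stayed in B. Their median scaled PC1 went from 0.24 to 0.87, with -0.11 in myoblasts. Of the 18 that fell, 6 crossed from A to B, 11 stayed in A and 1 was in B throughout, and their median went from 1.02 to 0.41, with 1.18 in myoblasts. Large changes were rarest at the B end: the SD of the change was 0.0983 over the 474 bins with the lowest scaled PC1 at day 3 (-1.64 to -0.91), of which 1 rose. It was 0.297 over 473 bins in the lower part of A (0.30 to 0.94), of which 32 rose and 6 fell. Of the 474 bins deepest in A (1.67 to 3.00) no bin rose and 5 fell.

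The largest rise was at the start of Dpf3 (chr12:83000001-83500000), which encodes a subunit of the BAF chromatin remodelling complex that binds acetylated and methylated histones and is expressed in heart and somites. Scaled PC1 was -1.09 in myoblasts, -0.62 in day 3 myotubes and 0.57 in AraC-treated myotubes. The bin thus crossed from B to A by 1.19 SD and holds no other protein-coding start. The neighbouring bin with Rgs6 (chr12:82500001-83000000), a regulator of G-protein signalling, went from -0.51 to 0.42, with -0.87 in myoblasts. Both belonged to a stretch of 5 adjacent bins on chromosome 12 (chr12:81000001-83500000) that also carries Slc8a3, a sodium/calcium exchanger of muscle and brain, and Map3k9, and in which mean scaled PC1 went from 0.45 to 1.17.

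A muscle gene of another chromosome gave a like pair of values. The bin of Myo18b (chr5:112500001-113000000), an unconventional myosin needed for assembly of the sarcomere, stood at -0.77 in myoblasts, -0.54 in day 3 myotubes and 0.41 in AraC-treated myotubes. It shares that bin with Sez6l, a neuronal membrane protein gene, so the change cannot be assigned to either gene. Dpf3 and Myo18b were the only members of the list of myogenic regulators and fusion genes whose bins rose by 0.5.

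The run with the largest mean change lay on chromosome 3. Over 9 adjacent bins (chr3:96500001-101000000, 54 gene starts) mean scaled PC1 went from 0.91 in day 3 myotubes to 1.76 in AraC-treated myotubes, with 0.24 in myoblasts. The change was 0.42 at the edge bin that holds Txnip and Hfe2 (hemojuvelin, a muscle and liver co-receptor of iron regulation), 0.63 at Notch2, a receptor of muscle stem cell quiescence, and 1.00 at the cluster of Hsd3b steroid dehydrogenases, which was the 1 bin of the stretch to cross from B to A (-0.12 to 0.88). It reached 1.17 at Tent5c, Gdap2 and Wdr3 (0.38 to 1.55), 1.04 at Man1a2, Vtcn1, Trim45 and Ttf2 (0.76 to 1.80), 1.00 at Tbx15, a T-box factor of skeleton and glycolytic muscle fibres, and Wars2 (0.60 to 1.60), and 0.93 at Spag17 (0.85 to 1.78). The bins just outside the stretch, already deep in A, changed by 0.11 and 0.27. The stretch was a dip in the A compartment in myoblasts that was shallower at day 3 and shallower again in AraC-treated myotubes.

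The remaining bins among the 12 largest rises lay on chromosomes 6, 14 and 17. On chromosome 6, the bin of Podxl, a sialomucin of podocytes and vessels, went from 0.14 to 1.12 and the next bin, with 1700012A03Rik, from -0.13 to 1.00. In myoblasts these bins stood at 0.17 and -0.08, near the day 3 values. On chromosome 14 the bin of Cdadc1, a cytidine deaminase domain gene, and Shisa2 went from -0.44 to 0.55, with -0.91 in myoblasts. On chromosome 17 the bin of Btbd9, Dnah8, Glo1 (glyoxalase, which detoxifies methylglyoxal), Glp1r and Umodl1 went from -0.40 to 0.45, with -0.57 in myoblasts.

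**Figure D3:**
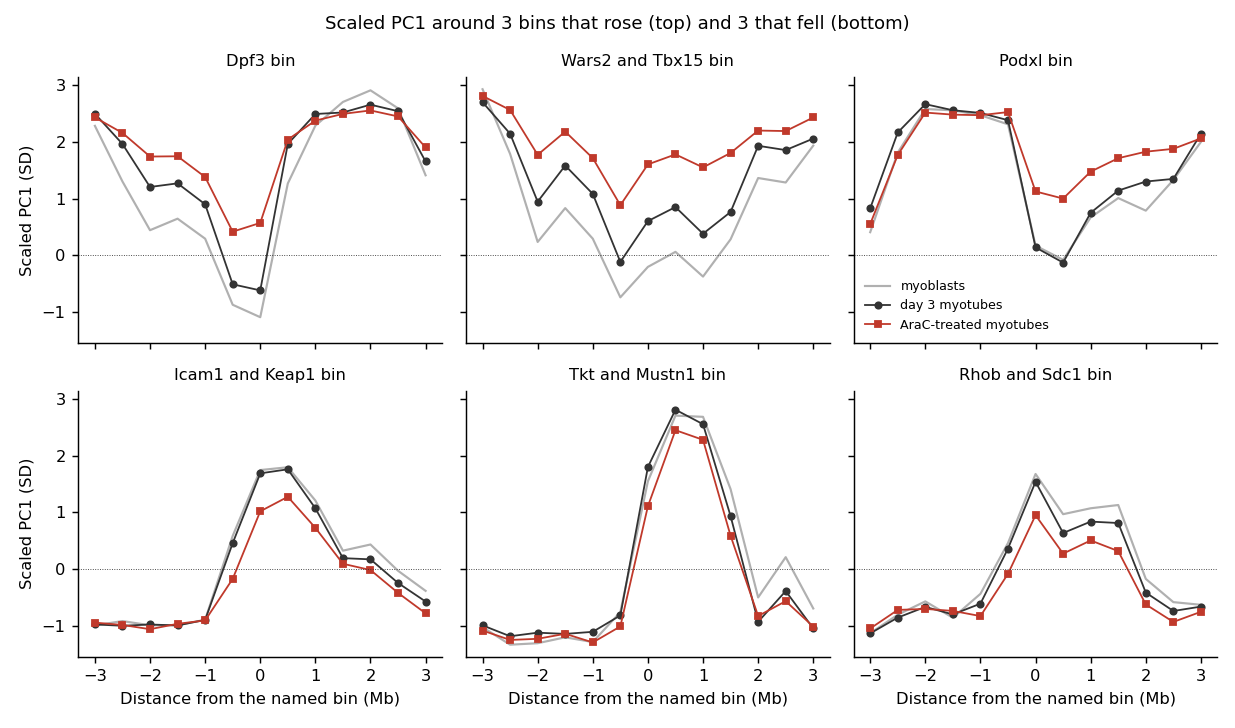
Scaled PC1 (y axis, SD of the chromosome) by distance from the named bin (x axis, Mb), with 1 point per 500 kb bin, in myoblasts, day 3 myotubes and AraC-treated myotubes; the top row shows 3 bins that rose and the bottom row 3 that fell. At Dpf3 and Podxl a trough in PC1 is shallower with AraC than at day 3, while the A bins on its other flank nearly overlap, and the 3 falls lie on the side or crest of a peak in PC1.

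Adjacent bins changed together. The change correlated at 0.61 between bins 0.5 Mb apart, 0.38 at 1 Mb, 0.22 at 2 Mb and 0.02 at 10 Mb, as a description over 4305 to 4683 pairs of bins that share their chromosome's component; scaled PC1 itself correlated at 0.85, 0.65, 0.38 and -0.0025 at the same distances. At a step of 0.3, which 274 bins passed upward (5.79% of bins) and 210 downward (4.44%), 29 rising runs of at least 3 adjacent bins held 138 bins, 50.4% of those past the step, and 14 falling runs held 46 bins, 21.9%. The longest rising run covered 6.5 Mb (13 bins) and the longest falling run 2.5 Mb (5 bins).

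The longest rising run lay on chromosome 17 (chr17:8000001-14500000, 46 gene starts). It carries the imprinted growth receptor gene Igf2r, the RNA-binding factor Qk and the mitochondrial superoxide dismutase Sod2. Mean scaled PC1 went from 0.18 to 0.69, with -0.08 in myoblasts, and 5 of its 13 bins crossed from B to A. The next run in length was on chromosome 9 (chr9:111000001-116000000), which carries Stac, Arpp21, Clasp2, Crtap and Gadl1. It went from -0.12 to 0.39, with -0.68 in myoblasts, and 7 of its 10 bins crossed from B to A. A run on chromosome 14 (chr14:58000001-62500000, 9 bins) that went from 0.49 to 1.12 carries Fgf9 and Setdb2 beside Cdadc1. A 3-bin run on chromosome 2 (chr2:74000001-75500000) holds the Hoxd cluster, the homeobox genes of limb and trunk patterning, and went from -0.14 to 0.41, all 3 of its bins crossing from B to A.

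Falls were smaller. The median bin that fell held 5 gene starts, as did the median bin in A at day 3, against 2 over all bins. The largest fall, -0.69, was in the bin of Tkt (transketolase of the pentose phosphate pathway), Prkcd, Sfmbt1, Mustn1 (a small nuclear protein of muscle and cartilage) and the Itih inhibitor genes (chr14:30500001-31000000). Scaled PC1 was 1.55 in myoblasts, 1.80 in day 3 myotubes and 1.11 in AraC-treated myotubes. The adjacent bin that holds Tnnc1, the slow and cardiac troponin C, had 2.81 and 2.45.

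A pair of falls held the genes that maintain DNA methylation at replication. The bin of Uhrf1, which recognises hemimethylated DNA, with Chaf1a, a subunit of the histone chaperone CAF-1, the perilipins Plin3, Plin4 and Plin5, and Kdm4b (chr17:56000001-56500000) went from 0.93 to 0.26, with 0.93 in myoblasts. The bin of Dnmt1, the maintenance methyltransferase (chr9:20500001-21000000), went from 0.45 to -0.18 and so crossed from A to B, with 0.58 in myoblasts. The next bin (chr9:21000001-21500000), which holds the adhesion molecule Icam1, the kinase Tyk2, the oxidative stress sensor Keap1 and the CDK inhibitor Cdkn2d, went from 1.69 to 1.02. The Dnmt1 and Icam1 bins lay in a falling run of 4 bins with 73 gene starts (chr9:20500001-22500000) that continues over Smarca4, the BAF ATPase (1.76 to 1.27). Each of these bins holds 14 or more gene starts, and the component does not resolve which of them the change follows.

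The other falls among the 12 largest held 1 to 7 gene starts. Gas1, a membrane protein first described in growth-arrested fibroblasts, is the only start in its bin (chr13:60000001-60500000), which went from -0.09 to -0.71, with -0.40 in myoblasts. The sign of PC1 on chromosome 13 is weakly fixed by gene starts (r of 0.06 with gene starts at day 3, against 0.28 with GC content, which gives the same sign there and on all 19 autosomes). The bin of Rhob, a small GTPase, Pum2 and the proteoglycan Sdc1 (chr12:8500001-9000000) went from 1.54 to 0.95, with 1.67 in myoblasts, and led the longest falling run, which reaches over Osr1, a marker of connective tissue precursors. The bin of Fndc3b and Pld1 went from 1.65 to 1.08, that of Farp1 and Stk24 from 1.12 to 0.56, and that of Prkd3, Qpct and Cdc42ep3 from 1.36 to 0.81. The bins of Il12a (0.32 to -0.24), of Lamb1 and Dld (0.19 to -0.35) and of Vav3 and Slc25a24 (0.51 to -0.03) crossed from A to B.

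Marker loci of skeletal muscle and of other cell types were placed in the compartments, where 58.2% of all protein-coding genes lay in A at day 3 and 57.2% with AraC. Of 7 muscle marker genes 6 lay in A bins in both conditions (median scaled PC1 1.66 at day 3 and 1.95 with AraC), with Myh4 as the exception at -0.78 and -0.54. Of 7 liver markers 2, of 7 neuron markers 2, of 7 blood markers 4 and of 7 fibroblast markers 5 lay in A in both. Fibroblast markers had medians of 1.08 and 0.90. A compartment is a property of the locus in the pooled cells and not a measure of transcription.

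Genes were then placed by the bin of their start. Of 20356 protein-coding genes, 489 lay in bins that rose (2.4%), 135 in bins that fell (0.663%), 573 in bins that went from A to B (2.81%) and 365 in bins that went the opposite way (1.79%). The median change over all genes was -0.03, and 41.6% of them had a change above 0. Lists are described by their counts and medians beside these values, and genes of 1 bin share 1 value. All lists were chosen with earlier results of these data known, so their shares beside those over all genes are description only.

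Sarcomere genes had no rise or fall. Their 40 members in 34 bins had a median change of 0.05, with 62.5% above 0, and ranged from -0.36 at Tnnc1 and -0.29 at Myom1 (M-line) to 0.29 at Tnnt3 and Tnni2 (fast troponins, 1 bin, 1.66 to 1.95). Titin (Ttn) stood at -0.11 in myoblasts, 1.15 in day 3 myotubes and 1.29 in AraC-treated myotubes. Nebulin (Neb) stood at -0.18, 0.36 and 0.58. Acta1 (skeletal actin) had 2.49 and 2.55, and Ckm (muscle creatine kinase) 1.06 and 0.81. The bin of the fast myosin cluster with Myh1, Myh4 and Myh8 stayed in B at -0.78 and -0.54, with -1.21 in myoblasts.

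Myogenic regulators differed little apart from Dpf3 and Myo18b. Of 32 members these 2 rose, none fell, and the median change was -0.02. The list was drawn up with earlier results of these data known. Its share of 6.25% beside 2.4% over all genes therefore carries no weight. Myod1 went from 1.65 to 1.72 and Myog from 2.42 to 2.45. After the leading 2 genes, Kirrel, an immunoglobulin-family adhesion gene, had the largest positive change (0.81 to 1.27), and the most negative values were at Mef2b (2.15 to 1.78), Eya1 (-0.12 to -0.45) and Tcf12 (1.63 to 1.35). Of 20 calcium handling genes none rose or fell. Jph4, a junctophilin that ties surface membrane to the sarcoplasmic reticulum, had the largest value at 0.48 and Casq2, a calsequestrin calcium store protein, the next at 0.37, while Cacna2d1 had -0.19.

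Muscle stem cell genes had values on both sides. Of 20 members Notch2 rose (1.08 to 1.71) and Met, the hepatocyte growth factor receptor of satellite cells, fell (0.71 to 0.20), with 0.29 and 1.03 in myoblasts. Spry1, an inhibitor of growth factor signalling in quiescent stem cells, went from 1.72 to 1.24, Itga7 from 1.68 to 1.25 and Vcam1 from -0.03 to -0.46, all short of the threshold. The list's median change was -0.09, and its 1 rise and 1 fall are 5% each, beside 2.4% and 0.663% over all genes. Extracellular matrix and mesenchyme genes had a median change of -0.04 with no rise and no fall among 39. The sign went from A to B at 4 of them, 10.3% of the list beside 2.81% over all genes. That share carries no weight, as the list was chosen with earlier results known. Changes of sign also lay close to the border: with an absolute scaled PC1 above 0.2 in both conditions, 3 of all bins went from A to B. The largest change in the list was at Col3a1, fibrillar collagen, from 0.45 to -0.03, with 0.67 in myoblasts.

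Cell cycle and replication genes had 2 rises among 56 (3.57%, beside 2.4% over all genes) and no fall, with a median change of -0.03. The rises were at Mcm7, a subunit of the replicative helicase (0.05 to 0.67), and Cdkn1c, an imprinted CDK inhibitor of cell cycle exit (1.40 to 1.95). Cdkn1b, another CDK inhibitor, went from 1.08 to 0.60, Cdk2 from 1.68 to 1.25, Cdk4 from 2.03 to 1.66, and Cdkn1a from 2.16 to 2.03. Genes of cytidine analogue uptake and metabolism had 1 rise among 21 (4.76%), Cdadc1, and a median change of -0.01. Dck, the kinase that activates AraC, stayed in B (-0.63 to -0.78), Cda, the deaminase that inactivates it, stayed in A (2.08 to 2.10), and the nucleoside transporter Slc29a1 went from 2.04 to 1.77. DNA damage and p53 genes had no rise and no fall among 36 and a median change of -0.10, with 27.8% of members above 0. Their extremes were Gadd45a (0.07 to -0.28) and Brca2 (0.74 to 1.02).

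The chromatin and nuclear lamina list had the lowest median change of the gene lists, -0.11 over 48 members, with 20.8% above 0. It had 2 falls, Uhrf1 and Dnmt1 (4.17%, beside 0.663% over all genes). As this list was also chosen with earlier results known, that share carries no weight. Smarca4, in the falling run beside Dnmt1, had -0.49 and Smarcd3, another BAF subunit, -0.38. The de novo methyltransferases had values of the opposite sign, 0.30 at Dnmt3a (0.44 to 0.74) and 0.38 at Dnmt3b (-0.13 to 0.25), and Syne2, a nesprin of the nuclear envelope, had 0.33. Inflammasome and innate sensing genes had 4 rises among 36 (11.1%, beside 2.4% over all genes). All 4 lay in the 1 bin of the Naip receptors (Naip1, Naip2, Naip5 and Naip6, sensors of bacterial flagellin and secretion systems). That bin went from 0.51 to 1.11, with 0.30 in myoblasts. The study had already reported higher PC1 with AraC at Naip2, Naip5 and Naip6 from these libraries. The list was chosen with that known, so its share of rises carries no weight. Mitochondrial energy genes had no rise and no fall among 31, with Opa1, the inner membrane fusion GTPase, at -0.49 and Ndufs1, a complex I subunit, at 0.40.

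**Figure D4:**
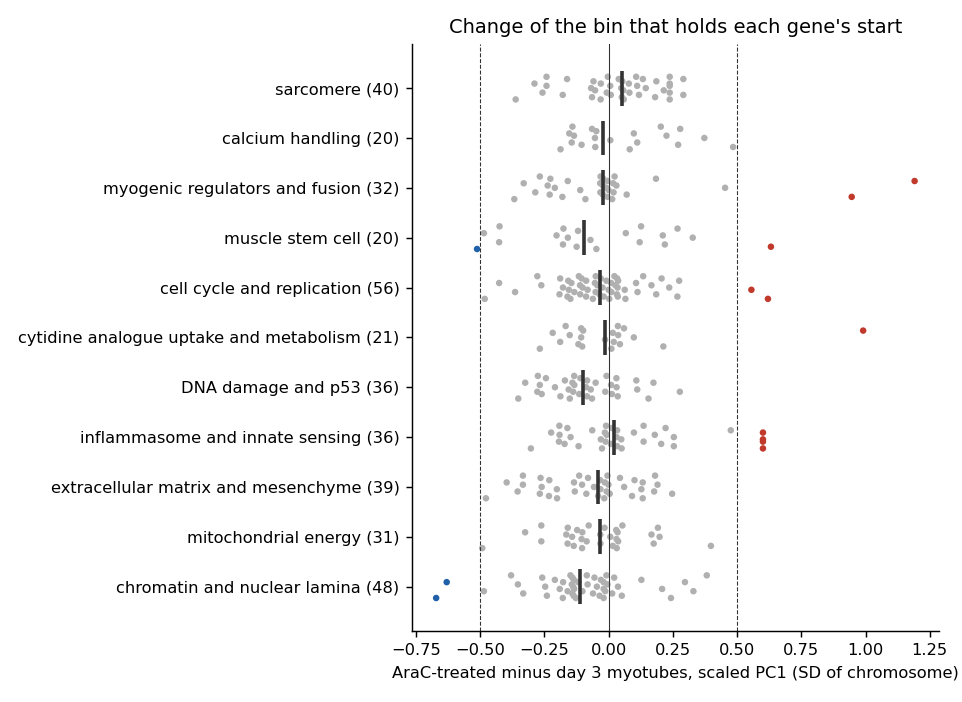
Change in scaled PC1 (x axis, AraC-treated minus day 3 myotubes, SD of the chromosome) of the bin that holds each gene's start, by gene list (y axis, number of genes placed); bars are medians and dashed lines mark 0.5 and -0.5. Most genes of every list lie between the dashed lines, with Dpf3 at 1.19 farthest to the right and Uhrf1 at -0.67 farthest to the left.

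In the gene families, replication-dependent histone genes had 67 members in 6 bins with no rise or fall and a median change of 0.11. Olfactory and vomeronasal receptors stayed mostly in B, with 8.87% of 1387 genes in A at day 3 and 8.36% with AraC, and 33 of them lay in bins that rose, 2.38% against 2.4% of all genes. Of 375 Zfp zinc finger genes 12 lay in bins that rose (3.2%), with Zfp612 the highest (-0.47 to 0.30), and 2 in bins that fell, Zfp266 and Zfp846, which share the Dnmt1 bin.

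The coefficients between bins of different chromosomes, which the within-chromosome component did not use, were read for the same bins. For each bin the mean coefficient with stable A bins of other autosomes minus that with stable B bins of other autosomes was taken. In the bins that rose this preference went from a median of 0.014 to 0.098 and was higher in AraC-treated myotubes in 102 of 102 bins, and in the bins that fell it went from 0.134 to 0.043 and was lower in 18 of 18. Over all bins it was higher in 3198 of 4732, and, in units of its SD per chromosome and condition, in 2142 (45.3%). Both measures come from the same pooled libraries and share the profile of each bin, so one is no replicate of the other. The bins had been picked by their change in PC1, so 102 of 102 and 18 of 18 are no separate support. At Dpf3 the preference went from -0.124 to 0.046, at Myo18b from -0.097 to 0.036 and at Tent5c from 0.025 to 0.151. At Uhrf1 it went from 0.168 to 0.068 and at Dnmt1 from 0.099 to 0.017. A component taken only from coefficients with other autosomes put 101 bins past the rise threshold, 87 of them among the 102. It put 19 past the fall threshold, 12 of them among the 18. On that component the bins of Dnmt1 (-0.01), Il12a (-0.21) and Lamb1 (-0.43) also ended below 0 with AraC. The bin of Vav3 and Slc25a24 did not, at 0.005.

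The profile of a bin along its own chromosome was also correlated between the conditions. The median profile correlation was 0.947 over all bins, 0.649 over the bins that rose and 0.789 over those that fell, and 55 bins (1.16%) had a value below 0. The lowest was -0.65 in a bin of chromosome 17 with no protein-coding start (chr17:65000001-65500000; scaled PC1 -0.23 to 0.19). Next were the bin of Slc3a1, Prepl and Camkmt on chromosome 17 at -0.49 (-0.37 to 0.29), the bin of Ttyh2, Gprc5c and the Cd300 receptors on chromosome 11 at -0.48 (-0.35 to -0.05), the bin of Col3a1 on chromosome 1 at -0.43 and the bin of Arpp21 on chromosome 9 at -0.42 (-0.15 to 0.38). Of these 5, the Slc3a1 and Arpp21 bins rose. All 5 lay near the border, with scaled PC1 between -0.37 and 0.45 in both conditions. The Dpf3 bin had a profile correlation of -0.17 and the Tent5c bin, which strengthened within A, one of 0.61.

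Chromosomes differed in how much moved. The correlation of scaled PC1 was lowest on chromosome 17 (0.966) and chromosome 3 (0.969) and highest on chromosome 11 (0.993). The share of bins that changed sign ran from 1.50% on chromosome 7 to 10.3% on chromosome 17. Chromosomes 3 and 17 had 11 rises each, and chromosomes 11 and 19 had none. Changes of sign went mostly from A to B on chromosome 3 (21 against 4), whereas on chromosome 9 (8 against 14) and chromosome 17 (6 against 13) more bins went from B to A. On 14 autosomes more bins went from A to B and on 5 more went from B to A.

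**Figure D5:**
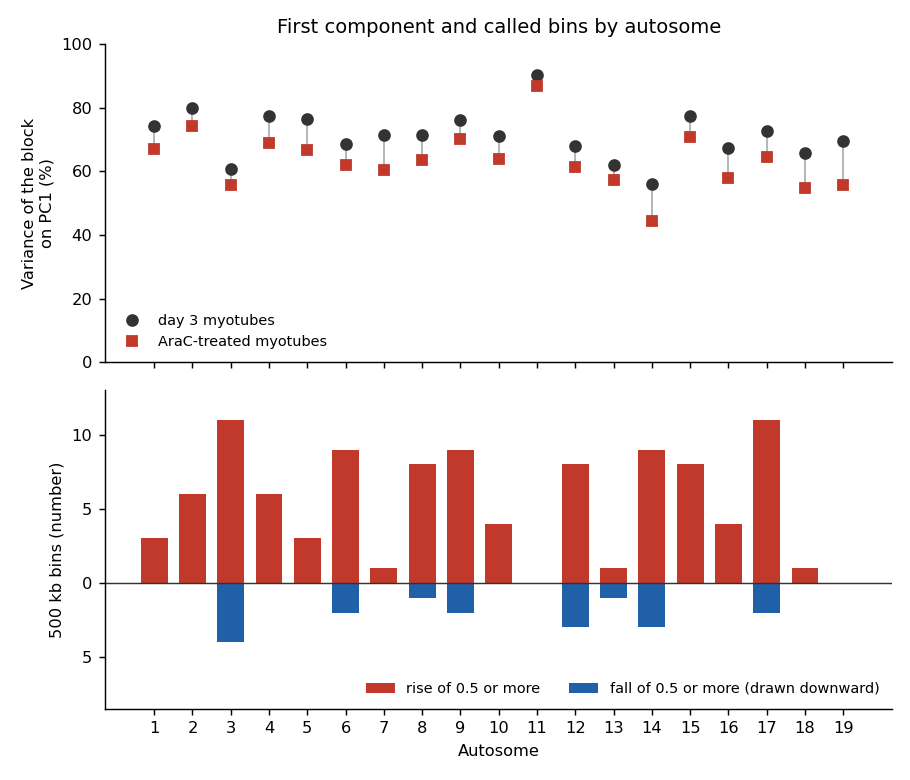
Top, share of the variance of each within-chromosome block that lies on PC1 (y axis, %) in day 3 and AraC-treated myotubes by autosome (x axis). Bottom, number of 500 kb bins that rose (upward) or fell (downward); the share is lower with AraC on 19 of 19 autosomes, and chromosomes 3 and 17 have 11 rises each.

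The plaid pattern itself was fainter in the AraC-treated matrix. PC1 held less of the variance of the block on 19 of 19 autosomes, from 90.3 to 86.7% on chromosome 11 and from 56.1 to 44.5% on chromosome 14. Over bins that kept their sign, the mean within-chromosome coefficient between A bins was 0.125 at day 3 and 0.108 with AraC, between B bins 0.080 and 0.064, and between A and B bins -0.066 and -0.058. The contrast, the mean of the first 2 minus the last, was 0.169 at day 3 and 0.144 with AraC, a ratio of 0.854, and was lower with AraC on 19 of 19 autosomes (ratios 0.737 to 0.933). Between chromosomes it was 0.151 and 0.126, a ratio of 0.834. In myoblasts it was 0.0785 within and 0.0621 between chromosomes. The coefficients as a whole were also less spread with AraC (SD between chromosomes 0.0889 and 0.0731), and relative to that SD the order turned, with 1.90 at day 3 and 1.97 with AraC within chromosomes and 1.70 and 1.72 between them. By the study's own account the AraC-treated libraries held fewer valid read pairs than those of day 3 myotubes. A larger share of their pairs joined different chromosomes. The part of either difference in the lower coefficients was not tested.

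The bins of each chromosome were also sorted by day 3 scaled PC1 into 5 classes of equal size. Classes set on the day 3 matrix favour day 3 in the outer classes, so weaker values with AraC there are not independent of that choice. Between chromosomes the mean coefficient went from 0.215 to 0.173 within the class deepest in A, from 0.102 to 0.073 within the class deepest in B and from -0.129 to -0.103 between these classes. Relative to the SD of each condition these differences were -0.05, -0.15 and 0.04, so the largest was among the bins deepest in B. The mean coefficient was lower with AraC in every pair of autosomes, with differences of -0.00156 to -0.0101, and 7 of the 10 largest differences involved chromosome 19. Along the chromosome the mean coefficient of adjacent bins went from 0.128 to 0.109, and at 50.5 to 100 Mb from 0.0117 to 0.0074.

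The change in scaled PC1 had little relation to sequence. Over bins it correlated at -0.08 with the number of gene starts, 0.04 with GC content, 0.01 with repeats and -0.01 with the number of HindIII sites. The bins that rose had a median of 160 HindIII sites and those that fell 150, against 162 over all bins. Median GC content was 43.7%, 44.8% and 41.7% in the same order, and median repeat content 27.5%, 28.4% and 31.5%. Bins in A at day 3, where most falls began, had medians of 152 HindIII sites, 44.3% GC and 28.4% repeats, close to the bins that fell. Of the 380 bins in the first 10 Mb with data of each autosome, next to the centromere, 9 rose (2.37%) and 2 fell. Of the 380 in the last 10 Mb 17 rose (4.47%) and 2 fell. Over all bins compared 2.16% rose and 0.38% fell. The mean coefficient between centromere-proximal bins of different chromosomes went from 0.0340 to 0.0206, or 0.38 and 0.28 in units of the SD of the condition.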

How the data were processed

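Hi-C libraries of C2C12 cells (HindIII, 2 per condition) were aligned and filtered by the authors (Bowtie and HOMER per the labels; build mm10), who pooled the replicates and deposited, per condition, a matrix of correlation scores between 500 kb bins; the deposited scores are correlation coefficients of normalized interaction profiles, not counts. The labels also list GRCh38 as a build; bins were read on mm10 (GRCm38.p6), whose chromosome lengths hold them. From these scores the first component of each column-centred within-chromosome block was computed by singular value decomposition (numpy 2.4.6, Python 3.11.15), signed by protein-coding gene starts (GENCODE vM21) and divided by its SD per chromosome and condition. Named bins were the 12 largest rises, the 12 largest falls, the 5 lowest profile correlations, the longest runs and, in each gene list, the 3 largest changes each way plus fixed muscle genes; genes named outside this rule were picked with their values in view. The members and lists were chosen with earlier results of these data known. Promoters are from RefSeq (GRCm38.p6). The scripts were tested on simulated matrices with known changes. Alternatives of scale, partner bins, thresholds and classes were computed; no replicate could be left out. With 1 pooled matrix per condition no test was made, and depth per library is not given in the matrices.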

Additional observations from a re-analysis of the deposited data

How the results depend on the processing

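No paired analysis was possible because the replicates were pooled into 1 matrix before deposit, and for the same reason no replicate could be left out. The cause of the differences below was not tested. Without division by the SD the falls numbered 217. With normal scores of the ranks the falls numbered 132 and the correlation of PC1 was 0.967. At a threshold of 0.3 there were 274 rises and 210 falls, and at 0.7 there were 30 rises and 0 falls. With an absolute scaled PC1 above 0.2 in both conditions 3 bins went towards B and 12 towards A. Divided by the SD of the between-chromosome coefficients, the contrast with AraC over that at day 3 was 1.04 within and 1.01 between chromosomes, in place of 0.854 and 0.834. The median profile correlation was 0.886 by rank. The counts and the correlation of PC1 moved by less than 1.5 times or 1 SD over autosomes under a further set of alternatives. These were odd or even partner bins, partner bins within 2 Mb left out, columns divided by their SD and coefficients with other autosomes only. The stricter set of 4632 bins was another, and leaving out chromosome 13 was an alternative chosen after seeing the data. The residual from a line per chromosome gave 108 rises and 14 falls; it has no correlation or sign of its own, and contrasts between chromosomes have no pairs under 10 Mb to leave out. All 29 named bins had the same sign of change in every one of the 9 alternatives for which they had a value. Their changes were 0.30 to 0.97 times the main value with normal scores and 0.67 to 1.93 times without division by the SD.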
